A study of Homo sapiens with 5 samples.

Results

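The first lung generation of a human renal cell carcinoma series, the line LM1, was compared with its parent, the line SN12C, on Affymetrix expression arrays. The comparison used 3 of the 5 arrays of the series, 1 of LM1 and 2 biological replicates of SN12C. The other 2 arrays, of the second lung generation LM2, stayed out of the contrast and are given beside it. SN12C is an established line of human renal carcinoma that the labels describe as parental and non-metastatic, and LM1 and LM2 as lung metastatic generations 1 and 2. No treatment is named for any line, and the host, the route and the number of clones behind each generation are not given in the sources used here. Values are log2 signals, so a difference of 1 unit is a doubling. Of 15024 genes tested, LM1 stood outside the range of the SN12C arrays on every probe set of the gene for 5127, and by at least 1 log2 unit on the gene's brightest probe set for 335. LM1 has 1 array, so its own spread is unknown. Precision is limited by the number of arrays, and whether the SN12C replicates came from separate cultures is not stated.

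Tumour cells that colonise the lung have to leave the primary site, survive in the circulation, adhere in lung capillaries and grow in a new matrix. Lines passed through the lung and recovered are a standard way to enrich cells that manage these steps, and parent and derivative share a genome apart from what was selected or acquired. Renal carcinoma lines commonly secrete inflammatory cytokines, among them interleukin 6 and the CXC chemokines that attract neutrophils, and many of those genes carry NF-kappaB sites just before their start. NF-kappaB is a family of transcription factors that is released from its inhibitors by inflammatory signals.

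The genes lowest in LM1 against SN12C included CXCL8, CXCL5, CXCL2 and IL6, and their proximal promoters are printed to show a motif that these 4 share. Each line holds the 150 bases before the start of the gene, 5' to 3' on the gene's own strand, from RefSeq on build GRCh38.p14. Capitals mark GGNNNTTCC, a form of the NF-kappaB motif searched on both strands (its reverse complement is GGAANNNCC).
CXCL8: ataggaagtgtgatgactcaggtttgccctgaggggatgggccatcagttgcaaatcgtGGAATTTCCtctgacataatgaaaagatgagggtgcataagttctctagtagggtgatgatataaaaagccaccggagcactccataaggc
CXCL5: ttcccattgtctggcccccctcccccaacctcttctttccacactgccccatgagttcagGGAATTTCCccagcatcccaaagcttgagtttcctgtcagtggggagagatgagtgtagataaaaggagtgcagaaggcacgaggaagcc
CXCL2: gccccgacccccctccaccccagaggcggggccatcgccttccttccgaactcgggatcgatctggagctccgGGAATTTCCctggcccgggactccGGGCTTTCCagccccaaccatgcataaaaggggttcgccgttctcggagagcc
IL6: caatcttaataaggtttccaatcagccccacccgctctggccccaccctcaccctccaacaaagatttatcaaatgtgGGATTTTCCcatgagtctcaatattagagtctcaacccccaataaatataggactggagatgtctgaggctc
The windows lie at chr4:73740419-73740568 (plus strand) for CXCL8, chr4:73998678-73998827 (minus strand) for CXCL5, chr4:74099196-74099345 (minus strand) for CXCL2 and chr7:22727050-22727199 (plus strand) for IL6. The first match begins at position -91 from the start in CXCL8, -90 in CXCL5, -77 in CXCL2 and -72 in IL6. CXCL8, CXCL5 and CXCL2 carry the same 9 letters, GGAATTTCC, and IL6 carries GGATTTTCC. Of 35116 promoters read in the same window, 3893 held the motif, which is 11.1%. Among promoters of the genes described below, 22 of 116 held it for genes at least 1 log2 unit below the SN12C range and 30 of 251 for genes as far above, with no test made. MIF, the gene farthest below, had no match, and CRIP1, the gene farthest above, had 1. A match describes these letters only, and no binding was measured.

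The LM1 array differed from the other 4 in the signal of the 3 cellular control transcripts given here, and this holds for the array behind every result below. Standard Affymetrix labelling starts at the poly(A) tail, and the signal at the 3' end of a long transcript over that at its 5' end is a usual check of how far the labelled copies reach. For ACTB, beta-actin, the 3' probe set stood 3.43 log2 units over the 5' one on the LM1 array, against 0.47 and 0.23 on the SN12C arrays and 0.07 and 0.19 on LM2. On LM1 the 3', middle and 5' probe sets of ACTB read 14.64, 13.13 and 11.21. For GAPDH the difference was 2.09 on LM1 and between -0.07 and 0.14 on the others. For 18S ribosomal RNA it was 1.10 on LM1 and between -0.31 and 0.39 elsewhere. Here the 3' probe set was high on LM1, at 9.71 against 7.98 to 8.49, and the 5' one read 8.61 against 7.66 to 8.80. For ACTB and GAPDH the 5' probe sets were low instead, at 11.21 and 12.35 on LM1 against 14.08 or more elsewhere. The spikes bioC, bioD and cre, added as labelled RNA, lay between 0.18 and 0.45 on all 5 arrays, and bioB between -0.22 and 0.04.

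**Figure D1:**
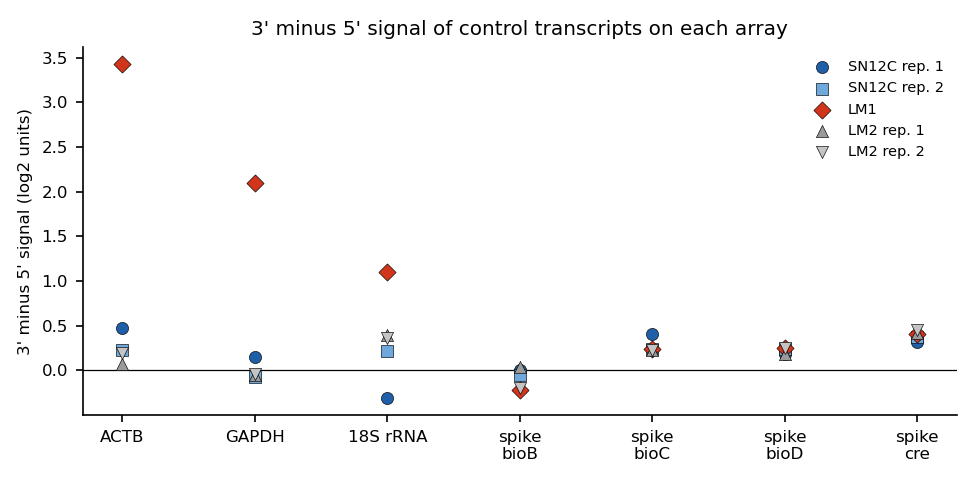
Difference between the 3' and 5' probe sets (vertical axis, log2 units) of 3 cellular control transcripts and 4 spikes, 1 point per array. The LM1 array (red diamonds) stands highest for ACTB, GAPDH and 18S RNA, at 3.43, 2.09 and 1.10; for the spikes it lies among the other arrays, except bioB, where it is lowest at -0.22.

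The LM1 array also stood apart when several probe sets of 1 gene were compared. In 7195 genes at least 2 probe sets passed the filter on dim signals. Their LM1 minus SN12C differences spread over a median of 0.70 log2 units, and over 1 unit or more in 36.7% of genes. Between the SN12C replicates the median was 0.46 and the share 15.6%, and between the LM2 replicates 0.14 and 0.06%. LM2 minus SN12C, a difference of means of 2 arrays, had a median of 0.27 and a share of 4.14%. In 909 genes 1 probe set put LM1 over SN12C by at least 0.5 log2 units and another put it under by as much, against 178 genes between the SN12C replicates. A single probe set therefore does not settle a gene's direction on this array, and the counts that follow require every probe set of the gene to agree. For the 5795 tested genes with only 1 probe set the rule rests on that probe set alone. Where a probe set lies along its transcript was not read here, so the part of the 3' signal in any single gene was not tested.

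**Figure D2:**
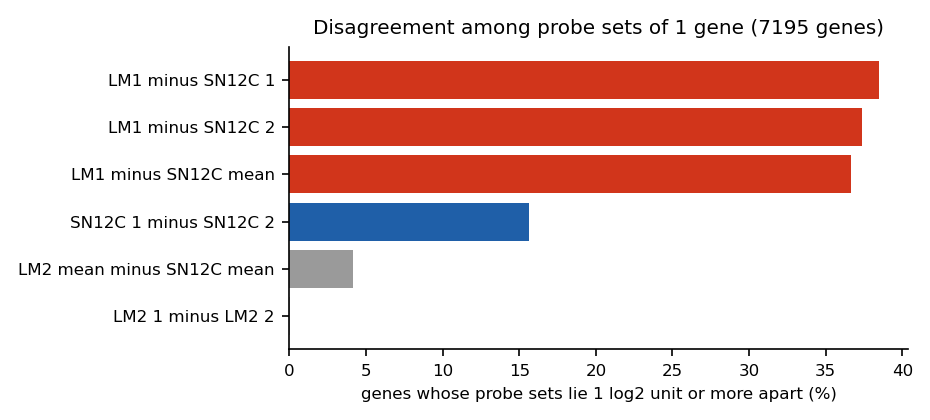
Share of 7195 genes (horizontal axis, percent) whose probe sets give differences at least 1 log2 unit apart, for 6 pairs of arrays or means. The 3 bars with LM1 reach 36.7% to 38.5%, the SN12C pair 15.6% and the LM2 pair 0.06%.

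Across genes, LM1 resembled SN12C replicate 2 more than replicate 1. The median absolute difference from LM1 was 0.37 log2 units for replicate 1 and 0.23 for replicate 2, while the SN12C replicates stood 0.28 apart. Correlations across genes, which are not independent replicates, were 0.940 and 0.963 for these pairs and 0.971 between the replicates. The LM2 arrays likewise correlated more with replicate 2, at 0.980 and 0.983, than with replicate 1, at 0.954 and 0.956. LM1 itself stood a median of 0.21 and 0.20 log2 units from the LM2 arrays. Many deposited values are identical: LM1 equalled SN12C replicate 2 for 1016 tested genes, and the SN12C replicates equalled each other for 714. Of the markers of renal carcinoma, PAX8, a renal lineage factor, read 9.82 and 9.34 in SN12C and 9.19 in LM1. PAX2 and LHX1, 2 further lineage factors, lay close to the filter value at 6.06 to 6.46 on all arrays, and CDH6 and CA12 between 6.87 and 7.59. VIM, KRT8 and KRT18, which are not specific to kidney, read 12.46 or more on every array. The tubule cadherin CDH16 reached the filter value on 1 of 5 arrays and PROM1 on none. Summed signals of leukocyte, endothelial, lung epithelial and erythroid markers in LM1 lay between those of the SN12C arrays. At or over the filter value in LM1 were 8 of 13 leukocyte, 8 of 13 endothelial, 8 of 11 lung epithelial, 5 of 7 erythroid and 8 of 12 fibroblast markers. Both SN12C arrays reached it for 8, 9, 8, 5 and 8 of these markers. The filter value is the 40th percentile of all values, so reaching it does not show that a marker is expressed. Fibroblast markers summed to 12.23 in LM1 against 11.33 and 11.98 in SN12C, with COL3A1 and COL1A2 among them, which the collagen list below also holds, and the part of such cells in the collagen values was not tested.

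On every probe set, LM1 stood above both SN12C arrays for 3475 genes, which is 23.1% of those tested, and below both for 1652, which is 11%. At least 1 log2 unit beyond the nearer SN12C array were 231 genes above (1.54%) and 104 below (0.692%). The median LM1 minus SN12C difference of all genes was 0.09, or 0.14 against replicate 1 and 0.07 against replicate 2. Of the 231 genes above, 131 had 1 probe set and 100 several, and of the 104 below, 62 and 42. Probe sets of the types _x_at and _s_at, which can bind several transcripts, made up 34.1% of those tested, 29.4% of the genes above and 46.2% of those below. The distance of 1 unit divides a continuous range: MSLN at 1.0007 and PNMA6A at 1.0015 lay just inside on the upper side and PCYOX1L at 0.9968 and TBC1D13 at 0.9970 just outside. On the lower side SYTL2 at -1.0021 and OCLN at -1.0098 lay just inside and CCL20 at -0.9984 and PRSS21 at -0.9916 just outside.

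**Figure D3:**
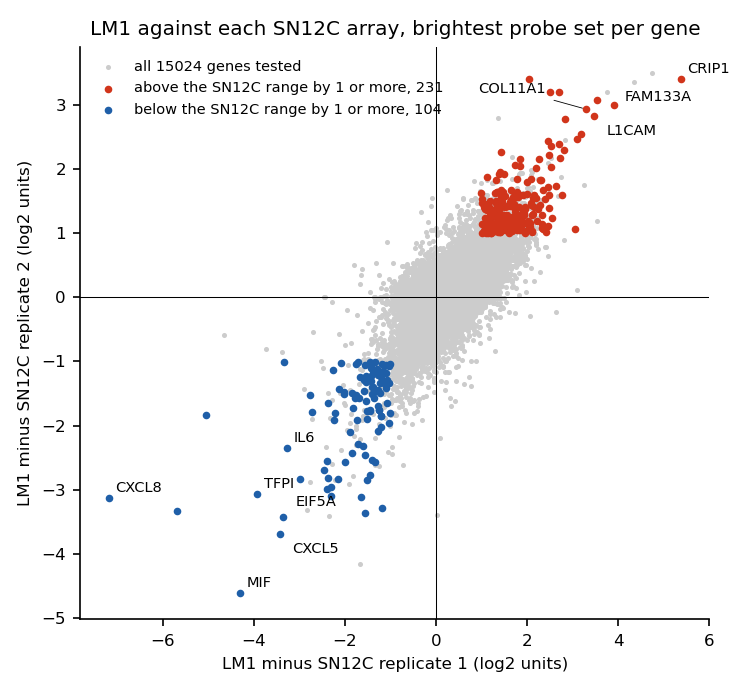
LM1 minus SN12C replicate 1 (horizontal axis) against LM1 minus SN12C replicate 2 (vertical axis), in log2 units, 1 point per gene on its brightest probe set. Red points are the 231 genes above and blue points the 104 genes below the SN12C range by 1 unit or more on the rule of every probe set; CRIP1 and FAM133A lie far to the upper right and CXCL8 and MIF far to the lower left.

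No gene passed the test. In limma, with 1 mean per line and the spread taken from the SN12C and LM2 pairs, 0 of 15024 genes (0%) had an adjusted p under 0.05, and the lowest adjusted p was 0.0964. Unadjusted, 3325 genes had a p under 0.05. The fit assumes that LM1 varies like the other lines, and it dropped no array. An exact permutation test of 1 array against 2 cannot go below p = 0.333, two-sided. What follows therefore describes these arrays, with each gene's values, and calls no gene changed.

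The neutrophil-attracting chemokines formed the group farthest below SN12C. All 5 tested members, of 8 listed, stood below both SN12C arrays, as did 11% of all genes. Their median difference was -3.56 against 0.09 over all genes. CXCL8, interleukin 8, the main human attractant of neutrophils, read 13.30 and 9.25 in SN12C and 6.12 in LM1, beside 5.43 and 6.21 in LM2. CXCL2 read 12.54 and 10.19 in SN12C, 6.86 in LM1 and 6.44 and 6.86 in LM2. CXCL5 read 11.21 and 11.48 in SN12C, 7.78 in LM1 and 7.24 and 7.51 in LM2. CXCL1, CXCL2, CXCL3, CXCL5 and CXCL8 all act on the receptor CXCR2, and in all but CXCL1 the LM1 value lay closer to both LM2 arrays than to either SN12C array. On the brightest probe set of each gene, the SN12C replicates were far apart for all but CXCL5. On its second probe set CXCL5 also parted them, at 7.72 and 9.80, with 4.28 in LM1. CXCL8 differed by more between the SN12C replicates than from replicate 2 to LM1. The list's median was -5.04 against replicate 1 and -3.13 against replicate 2. CXCL3 read 10.59 and 7.38 in SN12C and 5.55 in LM1, a value under the filter, so the size of its difference is uncertain. CXCL1 read 10.19 and 7.86 in SN12C and 6.85 in LM1. Both CXCL8 probe sets gave a large difference, -5.15 and -3.55. For CXCL5 the 2 brighter ones gave -3.56 and -4.48, while for CXCL2 the 2 dimmer ones, under the filter value of 6.03 on every array, gave -0.33 and -0.42. In limma, which used only the brightest probe set, the difference of CXCL5 was -3.56 ± 0.20 (SE) with an adjusted p of 0.0964. That of CXCL8 was -5.15 ± 1.97 with an adjusted p of 0.265. CXCL1, CXCL2 and CXCL3 are near-identical copies and their probe sets can bind each other's transcripts, so values are uncertain as to member.

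Other inflammatory genes controlled by NF-kappaB lay below SN12C less uniformly. Of 22 tested, 9 stood below and 1 above on every probe set, where 11% of all genes stood below and 23.1% above. The median was -0.44, with -0.89 against SN12C replicate 1 and -0.23 against replicate 2. IL6, interleukin 6, a cytokine that signals through STAT3, read 11.64 and 10.73 in SN12C and 8.37 in LM1, with 7.87 and 8.67 in LM2. CCL2, which attracts monocytes, read 11.32 and 11.54 in SN12C and 9.44 in LM1. The SN12C replicates were close for CCL2, and LM1 lay below LM2, at 10.17 and 10.82. IL1A, interleukin 1 alpha, read 9.51 and 6.59 in SN12C and 5.78 in LM1, under the filter value, so its size of difference is uncertain. NFKBIZ, a nuclear member of the inhibitor family, read 11.41 and 8.90 in SN12C and 8.04 in LM1. The exception was SOD2, the mitochondrial superoxide dismutase, at 7.87 and 7.36 in SN12C and 8.90 in LM1, above the LM2 arrays at 6.71 and 6.88 as well. In this comparison SOD2 was read by 1 probe set, so no second one bears on its direction. TNFAIP3, RELB, ICAM1, IL32 and CCL20 made up the rest of those below, with differences from -0.35 for ICAM1 to -1.76 for CCL20.

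MIF, macrophage migration inhibitory factor, a cytokine that holds macrophages in place and binds CD74, stood farther below the SN12C range than any other tested gene on the rule of every probe set. It read 13.17 and 13.48 in SN12C and 8.87 in LM1, and 6.44 and 7.97 in LM2. LM1 thus lay 4.30 under the nearer SN12C array and above both LM2 arrays. MIF was read by 1 probe set, of type _s_at, so no second one bears on it (limma, -4.46 ± 0.75, adjusted p = 0.115).

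TFPI, tissue factor pathway inhibitor, which blocks the start of coagulation, was low on all 5 of its probe sets. The brightest read 11.94 and 11.09 in SN12C, 8.02 in LM1 and 9.17 and 8.93 in LM2. The 4 probe sets over the filter gave differences from -3.42 to -4.55, and the dim one -0.69. On the brightest probe set LM1 lay below both LM2 arrays, while on 2 dimmer ones it lay between them. COL5A2, a minor fibrillar collagen chain, read 9.46 and 10.14 in SN12C, 7.32 in LM1 and 6.17 and 6.77 in LM2, and its 2 probe sets agreed at -2.49 and -2.51. SEMA3E, a secreted semaphorin that guides vessels and axons, read 7.59 and 8.23 in SN12C and 5.28 in LM1. GEM, a small GTP-binding protein of the RGK family, read 10.12 and 10.36 against 7.66. SLC16A7, a monocarboxylate transporter, read 8.99 and 8.07 against 6.28, and its 5 probe sets ranged from -2.28 to -0.19. The zinc finger genes ZNF781 and ZNF542P had differences of -2.07 and -2.01. In LM1, SEMA3E and ZNF781, the latter at 4.86, lay under the filter value, so the sizes of their differences are uncertain.

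Genes above SN12C were led by CRIP1, which encodes a small LIM-domain protein. CRIP1 read 6.98 and 8.95 in SN12C, 12.36 in LM1 and 11.75 and 11.86 in LM2, on its 1 probe set. LM1 exceeded the higher SN12C array by 3.41 log2 units, more than the 1.97 between the SN12C replicates (limma, 4.39 ± 0.94, adjusted p = 0.139). L1CAM, a neural adhesion molecule found in invasive carcinomas, read 7.12 and 7.76 in SN12C, 10.59 in LM1 and 9.80 and 9.89 in LM2. Its second probe set gave a smaller difference, 0.66 against 3.15. KRT19, a keratin of simple epithelia, read 8.92 and 9.54 in SN12C, 12.01 in LM1 and 11.76 and 11.74 in LM2, with 0.24 on a second, dim probe set. COL11A1, a fibrillar collagen chain, read 5.42 and 5.79 in SN12C, 8.73 in LM1 and 9.79 and 9.74 in LM2, so LM1 lay between parent and second generation. In SN12C both COL11A1 values lay under the filter value, near background, and the size of its difference is uncertain for that reason (limma, 3.12 ± 0.20, adjusted p = 0.0964).

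FAM133A, a gene of the X chromosome, read 6.26 and 7.18 in SN12C, 10.19 in LM1 and 11.13 and 10.09 in LM2, and both of its probe sets gave at least 2.34. GFRA1, a co-receptor for the growth factor GDNF, read 7.34 and 5.97 in SN12C and 9.39 in LM1, and its 3 probe sets agreed closely, from 2.55 to 2.85. HOXB-AS3, a non-coding RNA of the HOXB cluster, was higher on all 5 probe sets, by 1.09 to 2.44, with 9.47 and 9.63 in SN12C and 11.99 in LM1 on the brightest. RGS4, which switches off G-protein signalling, read 7.19 and 7.45 in SN12C and 9.68 in LM1. Its other probe sets gave smaller differences, 0.84 and 0.46 against 2.35. TMEM47, a membrane protein of cell junctions, read 3.95 and 4.57 in SN12C and 7.13 in LM1, both parental values being near background. A second, dim TMEM47 probe set gave 0.14. GIPC2, a PDZ-domain adaptor, read 7.34 and 6.84 in SN12C and 10.04 in LM1. SHISA9, PLEKHG4B and TBC1D24 had differences of 2.56, 2.86 and 2.45. Among genes with 1 probe set, LVRN, a membrane aminopeptidase, read 5.12 and 5.57 in SN12C and 8.66 in LM1, and CBR3, a carbonyl reductase on chromosome 21, 7.76 and 8.07 against 10.46. BEX5, LINC01694 and RHOBTB1 had differences of 2.81, 2.46 and 2.22. LVRN and LINC01694 lay under the filter value on both SN12C arrays, so the sizes of their differences are uncertain too. Over these 36 genes with the largest distances, 18 on each side, the limma adjusted p lay between 0.0964 and 0.265.

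**Figure D4:**
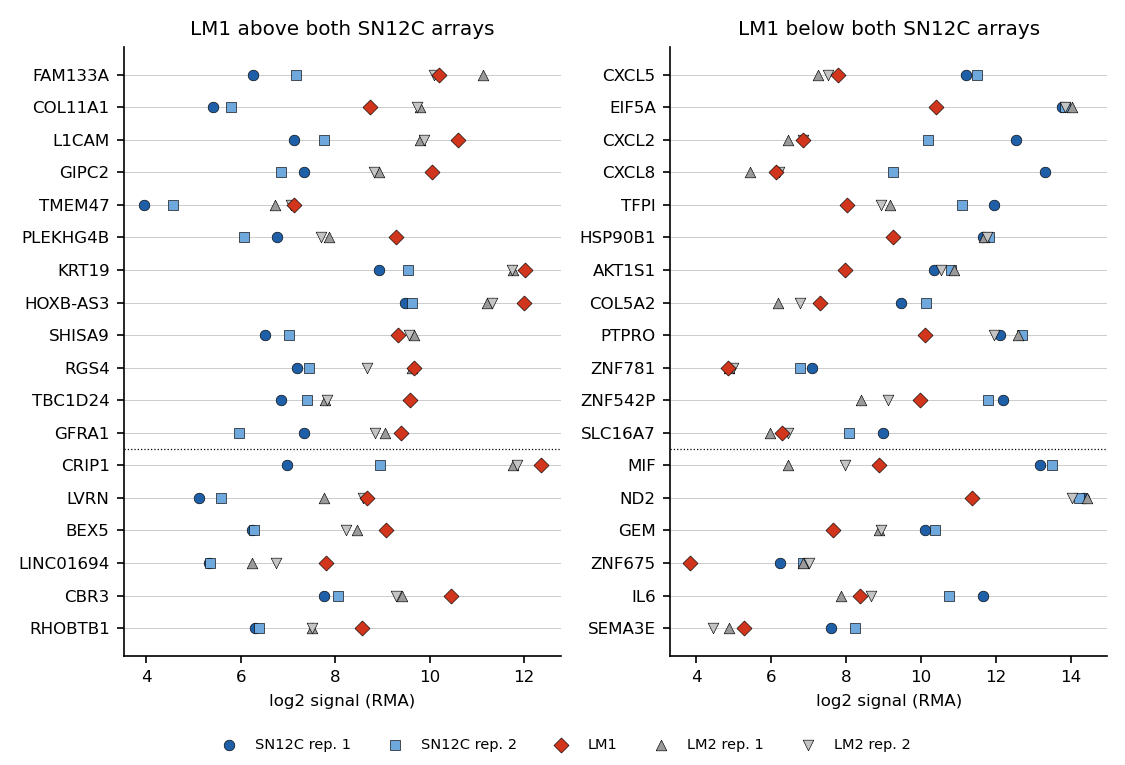
Log2 signal (horizontal axis) of the 36 leading genes on each of the 5 arrays, with genes of several probe sets over the dotted line and genes of 1 probe set under it. LM1 (red diamonds) lies outside both SN12C values (blue) by construction; EIF5A, HSP90B1, AKT1S1, PTPRO, ND2 and ZNF675 on the right are low on LM1 while both LM2 arrays (grey) lie near SN12C.

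Some of the leading genes set LM1 apart from all the other arrays rather than from SN12C alone. EIF5A, a translation factor modified with hypusine, read 13.76 and 13.83 in SN12C, 10.41 in LM1 and 14.02 and 13.84 in LM2. HSP90B1, the endoplasmic reticulum chaperone GRP94, read 11.65 and 11.80 in SN12C, 9.25 in LM1 and 11.68 and 11.77 in LM2. AKT1S1, an inhibitory partner of the kinase mTOR, read 10.33 and 10.80 in SN12C, 7.97 in LM1 and 10.88 and 10.53 in LM2. In these genes the LM2 arrays were at the parental level. The 3 probe sets of EIF5A differed widely, at -3.39, -0.94 and -0.48. PTPRO, a receptor tyrosine phosphatase, read 12.10 and 12.69 in SN12C and 10.11 in LM1, with 12.59 and 11.95 in LM2, and its probe sets ranged from -2.28 to -0.20. MYC, the growth-promoting transcription factor, read 11.41 and 11.68 in SN12C, 10.31 in LM1 and 11.41 on both LM2 arrays, on 1 probe set (limma adjusted p = 0.0981). In all, 43 genes stood above and 39 below all 4 other arrays by at least 1 log2 unit on their brightest probe set. This count was added after the data were seen, and it applied the rule of every probe set to the SN12C arrays alone. On the upper side the 43 genes included TBC1D24, 9.58 in LM1 against 6.85 to 7.82 elsewhere, and PODXL, a podocyte sialomucin, 11.74 against 9.22 to 10.47. CSPG4, a proteoglycan of motile cells, stood 1.59 over the highest of the other arrays. As the LM1 array is also the one with the raised 3' signal, line and array cannot be told apart in these genes.

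Collagens were the matrix genes with the highest median. Of 18 tested, 6 stood above and 1 below on every probe set, where 23.1% of all genes stood above and 11% below, and the median was 0.90, with 0.90 against replicate 1 and 0.70 against replicate 2. The median depended on the probe sets, being 0.51 with the mean of all probe sets of a gene and 0.27 without types _x_at and _s_at. Besides COL11A1, COL3A1, a fibrillar chain of soft tissue, read 6.98 and 8.98 in SN12C, 10.04 in LM1 and 10.94 and 11.11 in LM2. Its 5 probe sets ranged from 0.08 to 2.39. COL18A1, a basement membrane collagen and the precursor of endostatin, read 7.70 and 7.90 in SN12C and 9.47 in LM1, and its 2 probe sets gave 1.67 and 2.20. COL6A2, a chain of beaded filaments, gave 1.40 on its brightest probe set and 0.71 on the other. COL5A1 and COL16A1 stood above by less, with differences of 0.71 and 0.56. COL6A1 had a difference of 1.68 on its brightest probe set, but its 8 probe sets ranged from -0.90 to 1.68, and COL1A1 read 9.01 in LM1 against 9.04 and 9.01 on its brightest. Of 16 enzymes and other proteins that mature collagen, 6 stood above and 0 below, with a median of 0.28, beside the same shares of all genes. LOXL1, a collagen cross-linking oxidase, read 9.18 and 9.23 in SN12C and 10.33 in LM1, and the hydroxylases PLOD3, P4HA1 and P4HA2 had differences of 0.60, 0.49 and 0.65. LOX, the founding cross-linking enzyme, gave 0.22 on its brightest probe set and -2.81 on another. Of 20 other adhesive matrix genes 3 stood above and 4 below, among them EFEMP1, a fibulin, at 13.84 and 14.08 in SN12C and 12.90 in LM1, and TGFBI at 10.47 and 12.08 against 10.17.

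Genes of cell shape and adhesion were mixed. Of 19 mesenchymal genes 3 stood above and 2 below (median 0.26), where 23.1% of all genes stood above and 11% below. TWIST1, a transcription factor of the epithelial to mesenchymal transition, read 8.87 and 9.51 in SN12C, 10.96 in LM1 and 10.24 and 10.13 in LM2. S100A4, a calcium-binding protein tied to motility, read 8.61 and 9.19 in SN12C, 10.74 in LM1 and 12.90 and 12.29 in LM2, again with LM1 in between. Its relative S100A2 read 9.13 and 8.88 in SN12C and 10.56 in LM1, over LM2 at 9.67 and 9.88, and of 12 S100 genes 5 stood above and 2 below (median 0.29). Of 17 epithelial genes 4 stood above and 2 below (median 0.03). The tight junction genes CLDN1 and OCLN lay below, CLDN1 at 11.86 and 11.24 in SN12C and 10.26 in LM1. The 4 probe sets of OCLN ranged from -2.24 to -0.05. On the one at -0.05, LM1 read 8.3071 against 8.3095 and 8.4100 in SN12C, so it was barely outside the range. Of 24 contractile genes 4 stood above and 2 below (median 0.33, with 0.09 against replicate 2): TGFB1I1, a focal adhesion LIM protein, had a difference of 1.49 and CNN1, calponin, of -1.42. Of 20 adhesion molecules other than integrins 6 stood above and 1 below. They included JAM2, SDC1 and SDC4 with differences of 0.94, 0.83 and 0.82 (list median 0.40, but 0.02 with the mean of all probe sets). Of 17 integrins 3 stood above and 2 below around a median of 0.00, and ITGB5, one of those above, had a difference of 0.97.

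Among stress and growth response genes, the integrated stress response stood below SN12C mainly through replicate 1. Of 27 genes of the integrated stress response, the program that ATF4 drives when translation is slowed, 9 stood below and 0 above. Their median difference was -0.42, with -0.80 against replicate 1 but 0.04 against replicate 2. ATF3, a stress-induced transcription factor, read 9.03 and 8.86 in SN12C and 7.57 in LM1, and CEBPB 13.29 and 12.65 against 11.79. The 3 probe sets of ATF3 ranged from -1.38 to -0.08. DDIT3, known as CHOP, read 11.88 and 10.32 in SN12C and 9.75 in LM1, and DDIT4, an inhibitor of mTOR signalling, 11.08 and 8.91 against 8.37, so replicate 2 lay near LM1 for both. Of 23 immediate early genes 9 stood below and 2 above (median -0.06). DUSP1, a phosphatase of MAP kinases, read 11.74 and 11.76 in SN12C and 10.36 in LM1, with 10.93 and 10.99 in LM2, and its 3 probe sets ranged from -2.07 to -0.05. Of 15 ligands, receptors and feedback genes of the EGF receptor 2 stood below and 0 above, with a median of -0.13, the shares of all genes being 11% and 23.1%. One of the 2 was ERRFI1, a feedback inhibitor, which read 10.27 and 9.55 in SN12C and 7.91 in LM1, with 7.43 and 7.56 in LM2. EGFR itself gave differences from -1.95 to 0.12 over 9 probe sets, and no direction is given for it. Of 17 NRF2 targets 4 stood below and 1 above (median -0.17), and HMOX1, heme oxygenase 1, read 11.72 and 10.48 in SN12C and 8.95 in LM1. Of 16 heat shock genes 0 stood on either side.

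DNA replication genes showed the reverse dependence on replicate 1. Of 28 tested, 9 stood above and 1 below, where 23.1% of all genes stood above and 11% below. The median was 0.66, with 1.10 against replicate 1 and 0.03 against replicate 2. The SN12C replicates themselves were -0.97 apart in the median. CDC7, a kinase that fires replication origins, read 8.06 and 8.97 in SN12C and 9.75 in LM1. MCM3, a subunit of the replicative helicase, read 12.53 in LM1 against 12.21 in SN12C replicate 2, and had a difference of 0.93 from the SN12C mean. The exception was TK1, thymidine kinase, at 11.68 and 11.90 in SN12C and 10.79 in LM1 on its brightest probe set. Its other probe set read 11.49 and 11.52 in SN12C and 11.49 in LM1, a difference of only -0.02. Of 27 mitosis genes 9 stood above and 4 below (median 0.17), with AURKA at 0.94, NDC80 at 0.90 and TPX2 at -0.77. Of 21 genes of oxidative phosphorylation encoded in the nucleus 12 stood above and 1 below, and their median was 0.40, with 0.48 against replicate 1 and 0.26 against replicate 2. ATP5PO, a subunit of ATP synthase, read 12.56 and 12.88 in SN12C and 13.34 in LM1, with 13.06 and 13.10 in LM2. NDUFA9, of complex I, read 10.06 and 10.57 against 10.93.

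**Figure D5:**
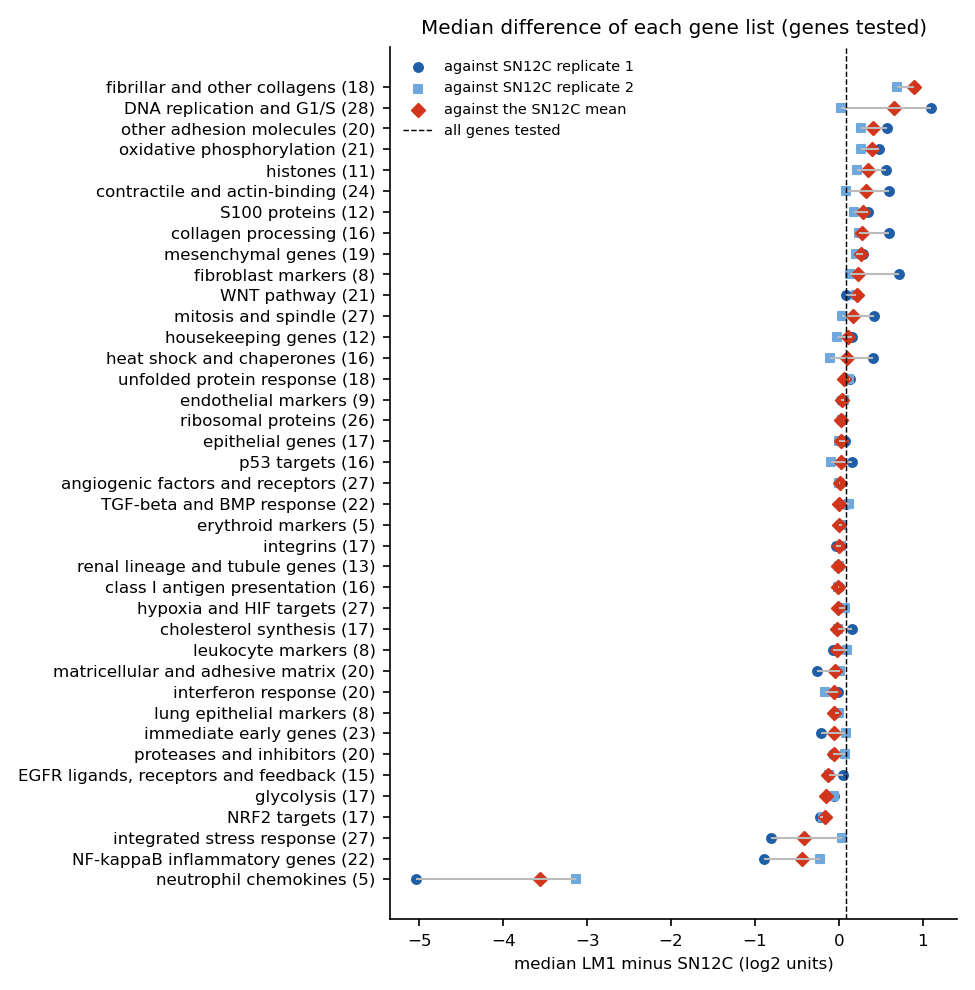
Median LM1 minus SN12C difference (horizontal axis, log2 units) of the tested members of 39 gene lists, with the number tested in brackets. Diamonds use the SN12C mean, circles replicate 1 and squares replicate 2; the dashed line is the median of all genes, 0.09. The chemokines stand at -3.56 and collagens at 0.90, and the wide bars of DNA replication and the integrated stress response show how far the SN12C replicates part.

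Single members of the remaining lists stood out where the list did not. DKK1, a secreted inhibitor of WNT signalling, read 12.34 and 11.79 in SN12C and 10.32 in LM1, with 10.42 and 10.41 in LM2. The WNT receptor FZD7 read 9.65 and 9.34 in SN12C and 10.99 in LM1, and FZD2 11.04 and 11.78 against 12.40. Of 21 WNT genes 4 stood above and 2 below (median 0.21), where 23.1% of all genes stood above and 11% below. TGFB1, transforming growth factor beta 1, read 9.76 and 9.99 in SN12C, 8.69 in LM1 and 10.14 and 9.68 in LM2, so LM1 alone was low. Of 27 angiogenic genes 3 stood above and 6 below. The membrane ligand EFNB2 and its receptor EPHB4 both lay above. EFNB2 read 5.49 and 5.96 in SN12C, both under the filter value, and 7.79 in LM1, and EPHB4 8.31 and 8.21 against 9.44. Their second probe sets gave smaller differences, 0.40 for EFNB2 and 0.31 for EPHB4. KDR, the main receptor of vascular endothelial growth factor, lay below, at 7.10 and 6.79 against 5.77. Its LM1 value lay under the filter value, so the size of its difference is uncertain. Of 20 interferon response genes 9 stood below and 4 above, with BST2 at -0.94 and MX1 at 0.89 on either side of a median of -0.05. Hypoxia genes (5 above and 4 below of 27), glycolysis (3 and 3 of 17), cholesterol synthesis (4 and 2 of 17), class I antigen presentation (3 and 3 of 16) and p53 targets (5 and 3 of 16) had medians between -0.15 and 0.03. The same held for 20 proteases and their inhibitors (2 above and 3 below, median -0.06). GADD45A, a growth arrest gene, read 12.56 and 12.07 in SN12C and 11.01 in LM1. Of 13 renal tubule genes 0 stood above and 1 below, MME, the membrane peptidase CD10, with a difference of -0.77. CD24 read 7.68 and 11.10 in SN12C and 7.71 in LM1, so the parental arrays differed more from each other than replicate 1 did from LM1.

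By chromosome, genes of chromosome 4 had the lowest median difference, -0.03, with 73 of 514 genes (14.2%) above the SN12C range and 103 below, against 23.1% and 11% of all genes. The 5 tested neutrophil-attracting chemokine genes are among these 514, and their part in the chromosome's values was not tested. Chromosome 2 followed at -0.02 over 951 genes. Chromosomes 21 (0.37), 14 (0.29), 13 (0.22) and 3 (0.21) had the highest medians. On chromosome 21 the median was 0.49 against SN12C replicate 1 and 0.26 against replicate 2, and on chromosome 14, which carries CRIP1, 0.39 and 0.19. No test of chromosomes was made.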

How the data were processed

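RNA of 3 human renal carcinoma lines was hybridised to 5 Affymetrix arrays. Per the submitters' processing notes, the deposited values were made with RMA and Partek (versions: not given in the sources used here). RMA subtracts background, gives all arrays the same distribution of probe signals and combines the probes of a set into 1 log2 value, so overall shifts between arrays are removed. The deposited log2 values were not transformed again.

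Of 54675 probe sets, 62 controls stayed out of the gene tables (1 control transcript is not reported here), and 41091 had 1 gene in the platform table. A gene was tested if its brightest probe set, the one with the highest mean, reached 6.03, the 40th percentile of all values, on at least 2 arrays. Genes counted as above or below had all their probe sets outside the SN12C range on that side. Samples were grouped by the labels. limma 3.58.1 in R 4.3.3 (lmFit and eBayes, 2 residual and 1.3 prior degrees of freedom, Benjamini-Hochberg at 0.05) was tested on simulated data. Named genes were the 12 with several probe sets and the 6 with 1 probe set that lay farthest out on each side, and up to 4 members of each of 39 lists. Some list members outside this rule were named after their values were seen. Members, lists and rules were chosen with earlier results of these data known. Other filters, probe set rules, normalizations, choices of arrays and a replicate block were tried. Promoters came from RefSeq. Figures were drawn with matplotlib 3.10.9.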

Additional observations from a re-analysis of the deposited data

Results flagged for a closer look

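Probe sets that the platform table does not list were outside the comparisons, and 4322 of them passed the filter. Of these 4322, 58 stood above both SN12C arrays by at least 1 log2 unit and 79 below. With only the brightest probe set of each gene, 461 of the 15024 tested genes stood as far above and 177 as far below. The farthest of the unlisted probe sets on each side are given as values. Probe set 213872_at lay at a distance of -4.79 log2 units from the nearer SN12C array, with 12.16 and 13.30 in SN12C, 7.37 in LM1 and 13.47 and 13.46 in LM2. Probe set 204614_at lay at -4.69, with 10.58 and 10.03 in SN12C, 5.34 in LM1 and 4.77 and 5.02 in LM2. Above SN12C, probe set 1557094_at lay at 1.99 and probe set 242206_at at 1.95. Which genes they measure is not named here.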

How the results depend on the processing

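The number of genes called by limma was 0 in every alternative except those that leave out an SN12C array. Leaving out 1 array at a time gave 0 to 4823 called genes: 1979 without SN12C replicate 1, 4823 without SN12C replicate 2 and 0 without either LM2 array. Without an SN12C array the spread comes from the LM2 pair alone, whose arrays lay a median of 0.07 log2 units apart. With the replicate block the fit called 0 genes (lowest adjusted p = 0.232), and LM1, with no replicate number, took no part in the pairing. The counts of 231 genes above and 104 below by at least 1 unit became 461 and 177 with only the brightest probe set, 100 and 42 with only genes of several probe sets, 3475 and 1652 at any distance, and 20 and 15 at 2 units. Against all 4 other arrays on the brightest probe set, an alternative added after seeing the data, they were 43 and 39. Leaving out 1 SN12C replicate gave 316 to 1078 above and 194 to 242 below. With no filter, other filters, without types _x_at and _s_at, with only probe sets past the filter, quantile normalized or centred, the counts lay between 209 and 279 above and between 87 and 127 below. The share of genes above among both sides was 69.0% as deposited, 64.0% after quantile normalization and 75.6% after centring, and the median difference 0.09, 0.07 and 0.14. As limma called 0 genes, there was no call that could reverse. Of the recomputed list medians, 325 stayed within the spread between the SN12C replicates and 26 moved further, and of the values of named genes 1393 and 100. The median of the NF-kappaB list was -0.23 without SN12C replicate 1 and -0.89 without replicate 2.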

Other observations

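Genes of the mitochondrial genome, looked at after their values were seen, were low on the LM1 array. Of 7 tested, 5 stood below both SN12C arrays on every probe set, 1 above and 1 did neither. The shares of all genes were 11% below and 23.1% above. ND2, a subunit of complex I, read 14.35 and 14.21 in SN12C, 11.37 in LM1 and 14.43 and 14.04 in LM2. ND4 read 14.71 and 14.65 in SN12C, 13.44 in LM1 and 14.72 and 14.65 in LM2, and ATP6, a subunit of ATP synthase, 14.43 and 14.54, 13.04, and 14.61 and 14.56. COX1 and COX2, subunits of cytochrome oxidase, had differences of -1.22 and -0.74. ND6, the only protein-coding gene on the other strand of the mitochondrial genome, stood above, at 8.47 and 8.92 in SN12C and 9.70 in LM1. The LM2 arrays lay near SN12C for ND2, ND4 and ATP6, and the part of the LM1 array's raised 3' signal in these values was not tested.

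Ribosomal protein genes had a median difference of 0.03, with 9 of 26 above and 4 below, the shares of all genes being 23.1% and 11%. The exception was the dim RPLP2, at 5.91 and 6.87 in SN12C, 7.97 in LM1 and 6.87 on both LM2 arrays. Of 11 histone genes 4 stood above and 1 below, with H1-2 at 7.98 and 8.72 in SN12C and 9.45 in LM1, and the list's median was 0.35, or -0.06 without probe sets of types _x_at and _s_at. Of 18 genes of the unfolded protein response 5 stood above and 4 below. MANF, a secreted stress protein of the endoplasmic reticulum, read 11.73 and 11.71 in SN12C and 12.40 in LM1, while HSP90B1 of the same list was low on LM1.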
